A study of Rattus norvegicus with 6 samples.

Results

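Phospholipid flippases and scramblases set the distribution of lipids between the leaflets of cell membranes. The 9 genes described here, of the 30560 in the files, were chosen by symbol: the flippases Atp8a1, Atp8a2, Atp10a, Atp10d, Atp11a and Atp11b, and the scramblase genes Ano6, Xkr4 and Xkr8. All 9 were found in the deposited tables. The tissue came from 11 male WT Wistar rats aged 12 weeks, taken 48 h after surgery. Rats with permanent occlusion of the right middle cerebral artery by a filament (MCAO) were sorted by infarct severity into moderate (mMCAO, 3 rats) and severe (sMCAO, 4 rats), and 4 Sham rats underwent the operation without filament insertion. Nuclei of each hemisphere were pooled over the rats of a group, which gave 6 single-nucleus RNA libraries: Sham L and Sham R, the left hemispheres contralateral to the infarct (mMCAO contra and sMCAO contra), and the infarcted right hemispheres (mMCAO ipsi and sMCAO ipsi). Each of the 3 groups compared (Sham, MCAO contra and MCAO ipsi) thus has 2 libraries. Sham L and Sham R come from the same rats, as do the contra and ipsi libraries of one severity, and each MCAO group holds 1 moderate and 1 severe library. P-values therefore measure only the spread between these pooled libraries.

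Flippases of the P4-ATPase family use ATP to move phosphatidylserine, phosphatidylethanolamine or other phospholipids to the cytosolic leaflet, and most of them leave the endoplasmic reticulum only with a CDC50 subunit such as the product of Tmem30a. Scramblases let lipids run down their gradient. Calcium opens the Ano6 protein (TMEM16F), whereas caspase cleavage turns on Xkr8 and Xkr4. Phosphatidylserine on the outer leaflet acts as an eat-me signal for phagocytes, promotes coagulation on platelets and endothelium, and marks axons and synapses for removal by glia.

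Promoter sequences from RefSeq (assembly GRCr8, which is not the build of the count tables, mRatBN7.2) were available for 7 of the 9 genes. Atp8a2 and Xkr4 had none. The 250 bases before the annotated start are shown for Ano6, the gene that rose in astrocyte-like and OPC-like nuclei, and for Atp10a, a gene whose level differed widely between oligodendrocyte sub-clusters. Ano6 lies on chromosome 7 at chr7:128812881-128813130 and Atp10a on chromosome 1 at chr1:118692228-118692477, both on the plus strand. Capitals mark matches to the motifs searched.
Ano6: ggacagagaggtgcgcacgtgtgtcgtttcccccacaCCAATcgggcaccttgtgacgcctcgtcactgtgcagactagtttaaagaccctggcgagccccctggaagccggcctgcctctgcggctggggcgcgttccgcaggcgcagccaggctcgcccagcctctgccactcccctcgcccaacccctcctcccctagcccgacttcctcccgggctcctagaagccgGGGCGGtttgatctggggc
Atp10a: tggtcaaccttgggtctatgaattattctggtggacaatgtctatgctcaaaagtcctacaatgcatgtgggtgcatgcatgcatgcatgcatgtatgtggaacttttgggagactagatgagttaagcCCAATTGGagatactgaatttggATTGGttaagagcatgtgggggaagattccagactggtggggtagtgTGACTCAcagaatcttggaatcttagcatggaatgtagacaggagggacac
The motifs were TATAAA, the GC box GGGCGG, the CAAT box CCAAT, the AP-1 motif TGAGTCA, the STAT motif TTCNNNGAA and the SOX motif ACAAAG, on both strands. Of 33469 rat promoter windows of the same length, 30.5% held the GC box, 34.0% CCAAT, 12.9% TATAAA, 4.05% the AP-1 motif, 7.67% the STAT motif and 16.3% the SOX motif. The Ano6 window held 1 GC box and 1 CCAAT match and was 68.0% G or C. The Atp10a window held 3 CCAAT matches, of which a pair overlaps, and 1 AP-1 match, and was 44.8% G or C. A match describes these letters and is not evidence of a bound factor.

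The 6 libraries held 8774 to 14508 nuclei and 33012945 to 52513380 unique molecular identifiers (UMIs, each marking a captured RNA molecule), with a median of 2059 to 3360 UMIs per nucleus. Clusters were named from marker genes, and each class carries the suffix -like because no deposited annotation was used. The classes compared were oligodendrocyte-like (6807 nuclei), committed precursor and newly formed oligodendrocyte-like (COP/NFOL, 825), oligodendrocyte precursor-like (OPC, 1972), astrocyte-like (2208), endothelial-like (844), fibroblast-like (903), glutamatergic neuron-like (25275), medium spiny neuron-like (6857) and other GABAergic neuron-like (14538). Levels are CPM (UMIs of a gene summed over a class in a library, scaled to a total of 1000000), and lists of 6 values follow the order Sham L, Sham R, mMCAO contra, sMCAO contra, mMCAO ipsi, sMCAO ipsi. Oligodendrocyte markers summed to 11692 to 15981 CPM in the oligodendrocyte-like class and OPC markers to 11115 to 15856 CPM in the OPC-like class. The classes were named from these markers, so the sums are no independent check of the names. Neuronal RNA was found outside neurons: all 9 neuronal markers had UMIs in the glial classes, and their summed level in astrocyte-like nuclei was 11830 to 17349 CPM in Sham, 12142 to 13115 in MCAO contra and 2358 to 4122 in MCAO ipsi. In MCAO ipsi this background was lower, and its values are given beside each gene with a high neuronal level.

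Among the flippases, Atp8a1 and Atp11a had their highest level in the oligodendrocyte lineage. Atp8a1, a flippase of phosphatidylserine in the plasma membrane and recycling endosomes, had a median of 1123 CPM over the 6 libraries in oligodendrocyte-like nuclei and 649 CPM in astrocyte-like nuclei. The lowest oligodendrocyte-like library, at 1043 CPM, overlapped the highest astrocyte-like one, at 1045 CPM. Glutamatergic neuron-like nuclei had 488 CPM, above the 378 CPM of other GABAergic neuron-like nuclei without overlap, and OPC-like and endothelial-like nuclei stood last at 344 and 329 CPM. Atp11a, a plasma membrane flippase that is inactivated by caspases, had 320 CPM in oligodendrocyte-like and 263 CPM in COP/NFOL-like nuclei, ranges that overlapped. The third class, astrocyte-like nuclei at 75.5 CPM, did not overlap them.

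Among the 9 classes compared, the other flippases were highest in endothelial-like or fibroblast-like nuclei, in neurons or in no single class. Atp10a, a phosphatidylcholine flippase, reached 269 CPM in endothelial-like nuclei with no overlap with the next class, the oligodendrocyte-like nuclei at 84.0 CPM. Fibroblast-like nuclei had 62.3 CPM, and the other 6 classes had medians of 14.4 CPM or less. Among these 9 classes Atp10d, which flips glucosylceramide, was highest in endothelial-like and fibroblast-like nuclei, with medians of 83.4 and 81.1 CPM and overlapping ranges. Myeloid-like nuclei, outside these 9 classes, had 134 to 259 CPM of Atp10d in the contra and ipsi libraries. Atp8a2, a flippase best known from neurons and photoreceptors, was highest in other GABAergic (439 CPM) and glutamatergic neuron-like nuclei (359 CPM), which overlapped each other and stood apart from medium spiny neuron-like nuclei at 215 CPM. Oligodendrocyte-like nuclei had the lowest Atp8a2 level, 50.4 CPM. Atp11b, an endosomal and Golgi flippase, spanned only 101 CPM in COP/NFOL-like to 191 CPM in oligodendrocyte-like nuclei.

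The scramblase genes differed in where they were expressed. Ano6 had medians of 314 CPM in fibroblast-like and 222 CPM in endothelial-like nuclei, and its lowest levels were 22.1 CPM in COP/NFOL-like and 19.9 CPM in oligodendrocyte-like nuclei, where both ranges overlapped. Xkr4, an XK-family gene of the brain, was highest in other GABAergic neuron-like nuclei at 2076 CPM and next in glutamatergic neuron-like nuclei at 1371 CPM, without overlap with each other or with the third class. OPC-like nuclei had 1246 CPM and oligodendrocyte-like nuclei 953 CPM of Xkr4, and astrocyte-like nuclei had the lowest median of the 9 classes, 524 CPM. Xkr8, the broadly expressed caspase-activated scramblase, did not exceed 16.0 CPM in any of these classes and libraries and passed the filter on low counts only in the 3 neuronal classes.

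**Figure D1:**
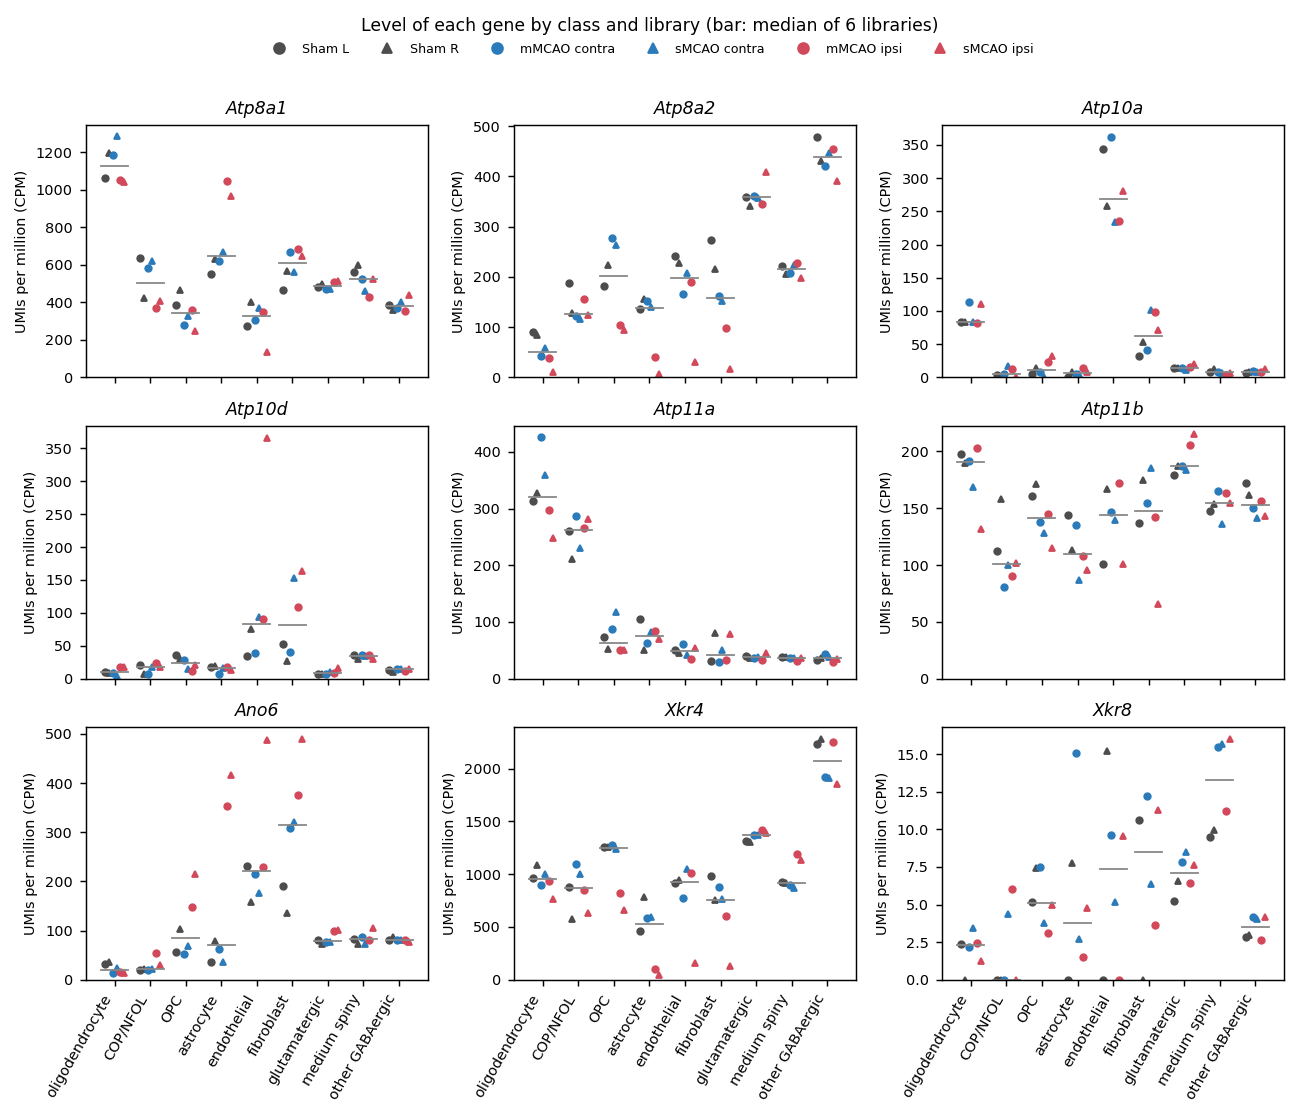
Level of each of the 9 genes (CPM, vertical axis from 0) in 9 classes of nuclei; each point is a library, coloured by group (grey Sham, blue contra, red ipsi), and the bar is the median of 6 libraries. Atp8a1 and Atp11a stand highest in the oligodendrocyte-like class, and the ipsi points of Ano6 in the astrocyte-like class, at 354 and 417 CPM, lie above all other points of that class.

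Estimated free neuronal RNA made up 31.5% to 34.2% of the oligodendrocyte-like UMIs in Sham, 16.2% to 19.1% in MCAO contra and 4.21% to 14.2% in MCAO ipsi. When the estimated share was subtracted from the sums, results below 0 were set to 0. Atp8a2 was then left with 0 UMIs in oligodendrocyte-like nuclei of all 6 libraries, which is the floor of this step and no measure of absence. Xkr4 stayed at 680 to 895 CPM in oligodendrocyte-like and at 494 to 1201 CPM in OPC-like nuclei. In astrocyte-like nuclei Xkr4 was left with 0 to 11 UMIs per library. The subtraction left Atp8a1 at 1063 to 1481 CPM and Atp11a at 256 to 498 CPM in oligodendrocyte-like nuclei.

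Over the 54 sums of 9 classes and 6 libraries, the genes most like each member were named by Pearson's r of log2(CPM + 5) among 7277 genes. These sums share libraries, so the r values are descriptions. Atp11a followed Col9a3 (r = 0.94), and Atp8a2 followed the synaptic genes Lrrtm4 (r = 0.96) and Rims1 (r = 0.95). Xkr4 was most like Rab3c and Ppfia2, both 0.90, and Ano6 most like Rbms1 (0.90) and the metalloprotease gene Adam9 (0.86). Atp10a was most like Apbb2 (0.87) and the unnamed ENSRNOG00000027520 (0.86), Atp10d like Vps25 (0.86) and Arhgap29 (0.80), and Atp8a1 like Dennd1a (0.82) and Grm3 (0.77). Atp11b reached 0.77 with Arfgef3 and Otud7a. Xkr8, with a mean of 5.75 CPM, reached only 0.67 with Lzts3.

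Of the 81 combinations of gene and class, 68 had enough counts to be tested with edgeR's quasi-likelihood test, and a call needed a log2 fold change of 0.6 or more in either direction and a Benjamini-Hochberg adjusted p under 0.05. In MCAO ipsi against Sham, 6 combinations were called, 2 higher and 4 lower. All 6 lay in OPC-like and astrocyte-like nuclei and concerned Ano6, Atp8a2 and Xkr4. DESeq2 also called 6, of which 1 was Atp8a2 in oligodendrocyte-like nuclei. Of all genes tested, edgeR called 12.3% in the OPC-like and 19.5% in the astrocyte-like class, and 0% to 6.83% in the other classes.

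**Figure D2:**
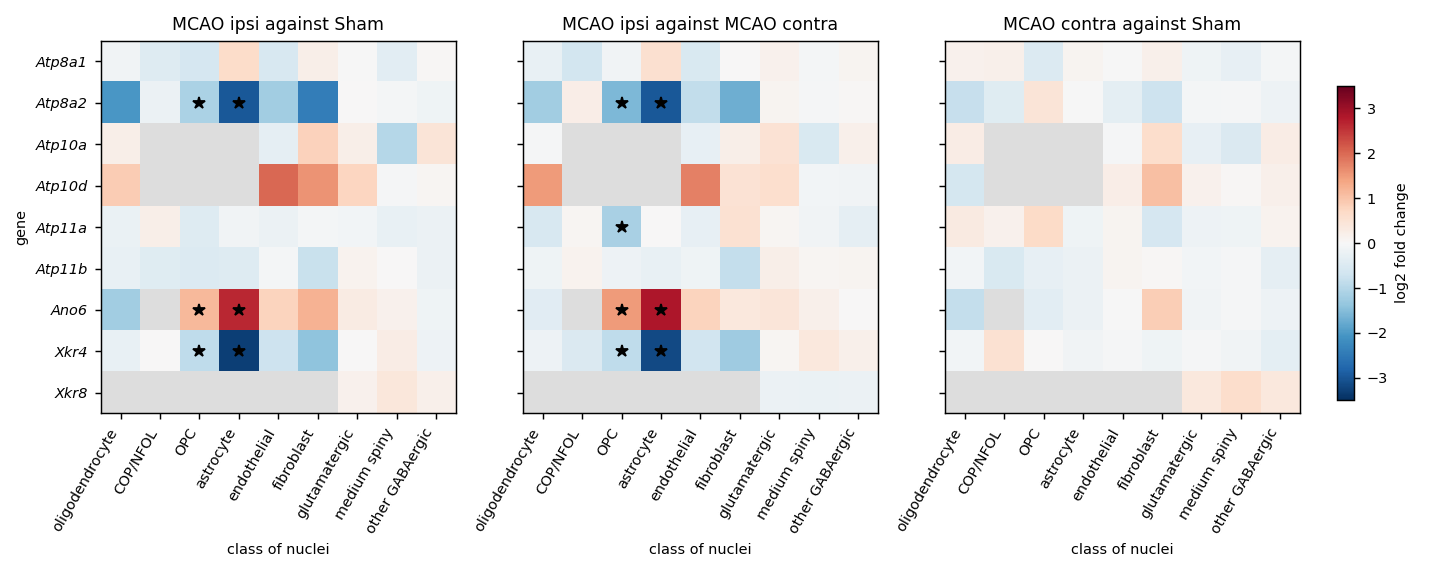
log2 fold changes (colour scale, red higher, blue lower) of the 9 genes (rows) in 9 classes (columns) for the 3 comparisons of groups; stars mark calls and grey cells were not tested. In the ipsi panels Ano6 is the only gene that was called higher, in OPC-like and astrocyte-like nuclei, with 2.63 in astrocyte-like nuclei against Sham, and the contra panel holds no star.

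In astrocyte-like nuclei, Ano6 rose. Its levels were 35.0, 77.9, 61.9, 35.4, 354 and 417 CPM, so both ipsi libraries stood above the 4 others. The log2 fold change against Sham was 2.63 ± 0.33 (SE, n = 2 libraries per group; edgeR adjusted p = 0.000538), and against MCAO contra it was 2.84 ± 0.30 (edgeR adjusted p = 0.000216). In each comparison 3 of the 6 genes tested in this class were called, where 19.5% of all genes tested were called against Sham (9.65% higher and 9.85% lower) and 20.2% against MCAO contra (10.2% higher and 10.0% lower). After subtraction of free neuronal RNA the levels were 6.93, 77.9, 49.1, 4.44, 387 and 431 CPM and the log2 fold change against Sham was 3.30 ± 0.70 (edgeR adjusted p = 0.0329).

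Atp8a2 and Xkr4 fell in the same astrocyte-like nuclei. Atp8a2 had 136, 156, 152, 141, 41.6 and 7.49 CPM, and both ipsi libraries lay below the rest. Its log2 fold change was -2.98 ± 0.54 against Sham (edgeR adjusted p = 0.00285) and -2.96 ± 0.50 against MCAO contra (adjusted p = 0.00188). Xkr4 had 459, 787, 589, 590, 98.5 and 45.6 CPM, again with both ipsi libraries below all others, and fell by 3.29 ± 0.37 on the log2 scale against Sham (edgeR adjusted p = 0.000381) and by 3.17 ± 0.37 against MCAO contra (adjusted p = 0.000340). The Atp8a2 value against Sham was -4.41 without mMCAO ipsi, -1.89 without sMCAO ipsi and -1.39 with predicted doublets kept, and the Xkr4 value was -1.84 with doublets kept, all still called by edgeR. Assigning nuclei from their own marker UMIs ended both calls (-2.41, adjusted p = 0.0890, and -2.10, 0.115). Both genes have high neuronal levels, and the free neuronal RNA in this class was 38.8%, 51.5%, 39.4%, 39.9%, 12.1% and 4.35% in the same order. Once it was subtracted, too few UMIs of Atp8a2 and Xkr4 were left for a test (0 to 7 and 0 to 11 per library).

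Atp8a1 in astrocyte-like nuclei was 551, 631, 621, 666, 1045 and 967 CPM. Both ipsi libraries were above the other 4, with a log2 fold change of 0.65 ± 0.22 that missed the threshold against Sham (edgeR adjusted p = 0.0551). It passed when sMCAO ipsi was left out (0.74, adjusted p = 0.0443). Atp11a and Atp11b did not pass in this class, with log2 fold changes of -0.13 ± 0.33 and -0.46 ± 0.27.

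The astrocyte-like class was made of different clusters in the groups. Cluster 15 held most of the Sham and contra nuclei, whereas cluster 18, led by Gfap, Aqp4, Tnc and Cd44, held 282 nuclei of mMCAO ipsi and 490 of sMCAO ipsi but only 10 and 19 of the Sham libraries. Within cluster 15, Ano6 was 31.6, 70.6, 36.9, 27.2, 83.5 and 55.8 CPM, and the ipsi values overlapped Sham R. In cluster 18 it was 477 and 451 CPM in the ipsi libraries and 301 and 111 CPM in mMCAO contra and sMCAO contra. Xkr4 in cluster 15 was 456, 701, 589, 628, 78.6 and 135 CPM, so the ipsi libraries were low within this cluster too. Free neuronal RNA was estimated only for the whole class, at 38.8% to 51.5% in Sham and 39.4% to 39.9% in MCAO contra. In MCAO ipsi it was 4.35% to 12.1%, and its part in the cluster 15 values of Xkr4 was not tested. Atp8a1 in cluster 15 was 560, 662, 623, 640, 1150 and 860 CPM, with the ipsi libraries again highest.

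**Figure D3:**
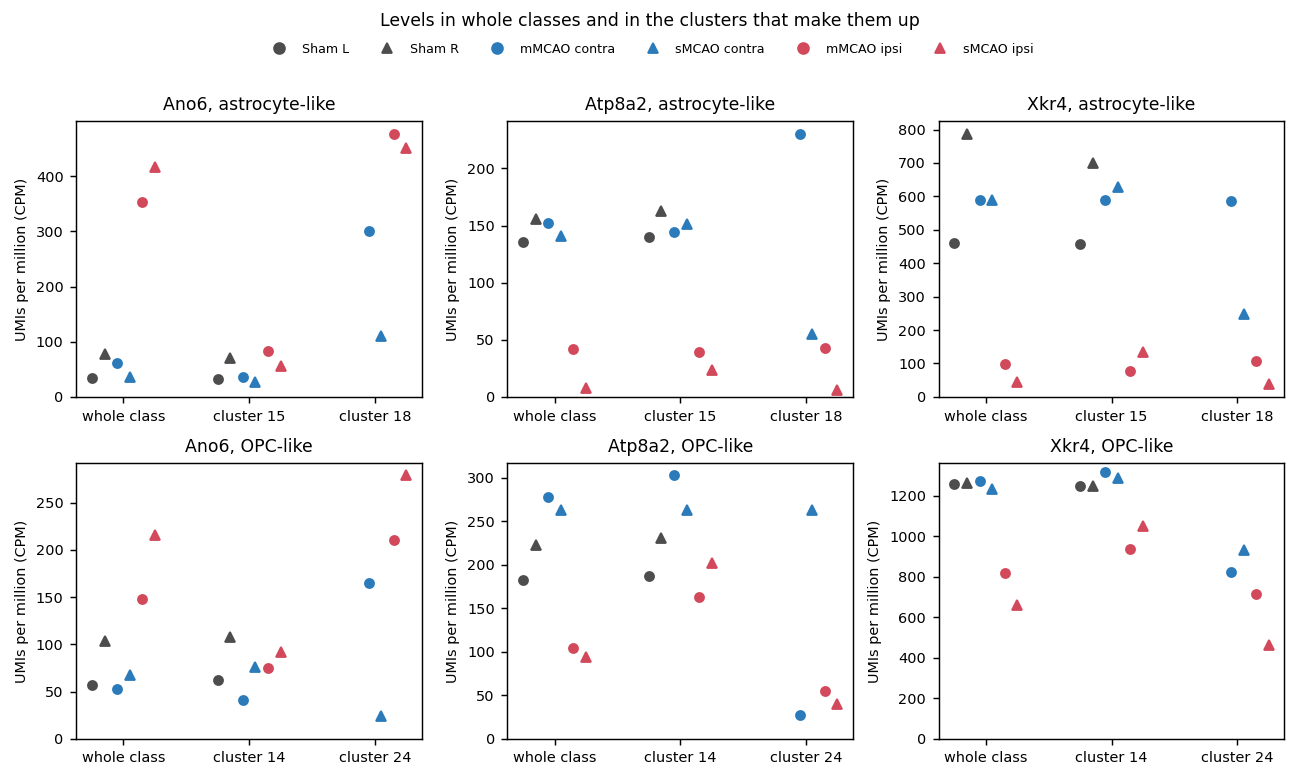
Levels (CPM, vertical axes from 0) of Ano6, Atp8a2 and Xkr4 in the whole astrocyte-like and OPC-like classes and in the clusters they consist of; each point is a library, and Sham has no point in clusters 18 and 24 because under 20 nuclei per library fell there. Ano6 reaches 477 CPM in mMCAO ipsi in astrocyte-like cluster 18 and 83.5 CPM in the same library in cluster 15.

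In OPC-like nuclei, 3 of the 6 genes tested were called against Sham, where 12.3% of all genes tested were called, 5.80% higher and 6.53% lower. Ano6 was 57.2, 104, 52.6, 67.7, 148 and 216 CPM, and both ipsi libraries were the highest. It rose by 1.14 ± 0.32 on the log2 scale against Sham (edgeR adjusted p = 0.0370). The call was lost without Sham L (0.72, adjusted p = 0.364), without Sham R (1.53, 0.0632) and without sMCAO ipsi (0.86, 0.0685). It was also lost under DESeq2 (1.10, 0.221), with only the compared groups fitted (1.12, 0.0607), after subtraction of free neuronal RNA (1.52, 0.0973) and with nuclei assigned from their own marker UMIs (0.18, 0.849).

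Xkr4 in OPC-like nuclei was 1258, 1262, 1274, 1234, 817 and 661 CPM, with both ipsi libraries below a narrow range of the others. Its log2 fold change was -0.88 ± 0.17 (edgeR adjusted p = 0.00669), and -0.93 ± 0.20 (adjusted p = 0.0243) after subtraction of free neuronal RNA. The call was lost without Sham L (-0.86, adjusted p = 0.0781) and with own-marker assignment (-0.28, 0.431). Atp8a2 was 182, 223, 278, 263, 104 and 94.3 CPM and also lowest in both ipsi libraries, with -1.12 ± 0.22 (edgeR adjusted p = 0.00690). Without Sham R this call was lost (-1.02, adjusted p = 0.0645), as it was with own-marker assignment (-0.37, 0.389). The neuronal markers in this class summed to 17537 to 18983 CPM in Sham, 15876 to 16278 in MCAO contra and 9197 to 12857 in MCAO ipsi, and after subtraction the Atp8a2 value was -0.47 ± 0.72 (adjusted p = 0.771).

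Against MCAO contra, the log2 fold changes in OPC-like nuclei were 1.50 ± 0.29 for Ano6 (edgeR adjusted p = 0.00592), -0.89 ± 0.16 for Xkr4 (0.00527), -1.58 ± 0.19 for Atp8a2 (0.000762) and -1.13 ± 0.26 for Atp11a (0.0172), 4 calls of 6 genes where 11.7% of all genes tested were called, 5.95% higher and 5.74% lower. Atp11a was 72.8, 52.0, 87.6, 117, 49.9 and 50.6 CPM, and its ipsi libraries lay below both contra libraries and close to Sham R. After subtraction of free neuronal RNA all 4 were still called, with -2.71 ± 0.43 for Atp8a2 and -1.37 ± 0.35 for Atp11a. The Ano6 and Xkr4 calls were lost without mMCAO contra (1.31, adjusted p = 0.0990, and -0.87, 0.0735), and the Atp11a call without either contra library and under DESeq2 (-1.14, 0.181). With own-marker assignment all 4 calls were lost. Both comparisons use the same ipsi libraries.

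The OPC-like class also differed in makeup between the groups. The share of its nuclei in the sub-clusters with cell cycle transcripts (sub-clusters 7 and 13) was 2.96%, 0%, 5.14%, 6.07%, 48.4% and 83.8%. Sub-cluster 13, led by Hmga2, Tnc and Cd44, had 459 CPM of Ano6 (95% interval 386 to 542), sub-cluster 7 had 149 (126 to 175), and the remaining main OPC-like sub-cluster 1 had 58.7 (45.4 to 74.6). In sub-cluster 1, Ano6 was 47.6, 90.1, 40.3, 70.6, 51.7 and 95.1 CPM, and the groups overlapped. Without sub-clusters 7 and 13, an alternative added after the data were seen, the ipsi against Sham values became 0.02 ± 0.43 for Ano6 (edgeR adjusted p = 0.998), 0.06 for Atp8a2 (0.968) and -0.41 for Xkr4 (0.298), and none of the 4 calls against MCAO contra was kept.

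In oligodendrocyte-like nuclei, 0 of the 8 genes tested were called in MCAO ipsi against Sham by edgeR, 2 had an unadjusted p under 0.05 and DESeq2 called 1, whereas 5.99% of all genes tested were called. The median log2 fold change of the 8 genes was -0.25. Atp8a1 was 1061, 1195, 1185, 1287, 1051 and 1043 CPM, and its ipsi libraries lay just under Sham L (log2 fold change -0.11 ± 0.12, edgeR adjusted p = 0.659). Atp11a was 313, 327, 426, 359, 297 and 248 CPM, with both ipsi libraries lowest (-0.24 ± 0.16, adjusted p = 0.406). Atp11b was 198, 190, 192, 169, 203 and 132 CPM and low only in sMCAO ipsi (-0.25 ± 0.21, adjusted p = 0.547). Atp10a, at 84.0, 84.1, 114, 83.2, 81.3 and 110 CPM, overlapped between all groups. Xkr4 was 966, 1084, 898, 1004, 939 and 762 CPM, lowest in sMCAO ipsi (-0.27 ± 0.14, adjusted p = 0.298). After subtraction of free neuronal RNA, Atp8a1 was 1327, 1481, 1318, 1470, 1134 and 1063 CPM. Atp11a was then 444, 447, 498, 431, 338 and 256 CPM. Both ipsi libraries were below all others for these genes, and edgeR called neither. Atp10a, Atp11b and Xkr4 overlapped between the groups after subtraction.

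The remaining oligodendrocyte-like values were low. Atp8a2 was 90.0, 84.1, 42.6, 58.1, 38.8 and 10.0 CPM, highest in both Sham libraries, with a log2 fold change of -2.03 ± 0.50 that just missed the threshold (edgeR adjusted p = 0.0525). It was called under 7 of its 14 alternatives, among them DESeq2 (adjusted p = 0.0266) and the exclusion of mMCAO ipsi (-3.10) or sMCAO ipsi (-1.19). The neuronal markers in this class summed to 9940 to 10789 CPM in Sham, 5679 to 6342 in MCAO contra and 1811 to 4572 in MCAO ipsi. Ano6 was 32.4, 35.4, 14.5, 23.9, 15.8 and 13.1 CPM, also highest in both Sham libraries (-1.23 ± 0.37, adjusted p = 0.0864). Without mMCAO ipsi it was called (-1.30, adjusted p = 0.0216), as it was with no filter (-1.21, 0.0446). After subtraction of free neuronal RNA, the Ano6 levels were 5.33, 18.9, 1.71, 11.2, 2.80 and 9.77 CPM, from 2 to 15 UMIs per library, and Sham L lay below both severe libraries. Atp10d was 9.60, 8.85, 7.95, 3.42, 17.0 and 18.2 CPM, and its ipsi libraries were the highest at a level of few UMIs (0.89 ± 0.49, adjusted p = 0.331). Against MCAO contra, again 0 of 8 were called by edgeR and 0 by DESeq2, with 3 unadjusted p under 0.05, where 0.181% of all genes tested were called.

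The difference between the oligodendrocyte-like response and that of another class was tested directly with a class-by-group term for MCAO ipsi against Sham, in 25 of 27 combinations. In all, 5 terms passed an adjusted p of 0.05. For Ano6 the oligodendrocyte-like log2 fold change was lower than the OPC-like one by 2.48 ± 0.48 (edgeR adjusted p = 0.00146, where 2.87% of genes tested passed), lower than the astrocyte-like one by 4.07 ± 0.52 (0.000149, 4.89%) and lower than the glutamatergic neuron-like one by 1.41 ± 0.37 (0.0222, 6.78%). For Xkr4 it was higher than the astrocyte-like one by 2.99 ± 0.35 (edgeR adjusted p = 4.33e-05). For Atp8a2 it was lower than the glutamatergic neuron-like one by 2.01 ± 0.42 (edgeR adjusted p = 0.00475). After subtraction of free neuronal RNA, however, oligodendrocyte-like nuclei held 0 UMIs of Atp8a2 in all 6 libraries. The same nuclei held 2 to 15 UMIs of Ano6 per library. Their Ano6 levels were 5.33 and 18.9 CPM in Sham and 2.80 and 9.77 CPM in MCAO ipsi. Astrocyte-like nuclei then held 0 to 11 UMIs of Xkr4 per library. The terms were not tested on the subtracted sums. Left without Sham L, only the terms of Ano6 and Xkr4 against astrocyte-like nuclei passed.

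COP/NFOL-like nuclei gave 5 testable genes, of which edgeR called 0 in either ipsi comparison, as did DESeq2, with 0 unadjusted p under 0.05 against Sham and 1 against MCAO contra. In this class 0% of all genes tested were called against Sham and 0.0242% against MCAO contra. Atp8a1 was 635, 421, 584, 620, 368 and 406 CPM and lowest in both ipsi libraries, with a log2 fold change of -0.46 ± 0.26 (edgeR adjusted p = 0.589). Atp11a was 260, 211, 287, 230, 266 and 281 CPM and overlapped between groups.

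In endothelial-like and fibroblast-like nuclei no gene of the whole transcriptome was called (0% in both ipsi comparisons). Atp10d in endothelial-like nuclei was 33.8, 75.8, 38.4, 93.6, 91.0 and 366 CPM, high only in sMCAO ipsi, with a log2 fold change of 2.01 ± 0.77 (edgeR adjusted p = 0.638). Ano6 was 231, 159, 215, 177, 229 and 488 CPM, again high only in sMCAO ipsi (0.77 ± 0.42, adjusted p = 0.646). The severe over moderate ratio within MCAO ipsi was 4.02 (95% interval 2.68 to 6.26, counting error only) for Atp10d and 2.13 (1.62 to 2.83) for Ano6, against 0.381 (0.277 to 0.520) for Atp8a1 and 0.154 (0.119 to 0.197) for Xkr4. Free neuronal RNA was estimated at 48.4% to 64.8% of the endothelial-like UMIs in 5 libraries and 7.36% in sMCAO ipsi. After its subtraction Atp10d was 56.7, 154, 60.7, 217, 174 and 392 CPM and Ano6 was 374, 256, 334, 325, 368 and 517 CPM, with sMCAO ipsi highest for both and nearer to the other libraries. Atp10d was called against Sham with no filter (2.05, edgeR adjusted p = 0.00779) and without mMCAO ipsi (2.60, 4.94e-10).

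Ano6 in fibroblast-like nuclei was 190, 135, 309, 320, 375 and 490 CPM. Both ipsi libraries were highest, the contra libraries came next and the Sham libraries were lowest, yet the log2 fold change of 1.22 ± 0.34 did not pass (edgeR adjusted p = 0.182). Free neuronal RNA was estimated at 65.7%, 72.1%, 51.7%, 40.0%, 38.5% and 5.67% of the fibroblast-like UMIs. Once it was subtracted, Ano6 was 349, 233, 534, 467, 533 and 512 CPM, where the ipsi and contra libraries overlapped (0.91 ± 0.40 against Sham, adjusted p = 0.504). Atp10d there was 52.8, 26.9, 40.7, 153, 109 and 164 CPM, with sMCAO contra between the ipsi libraries. Atp8a2 had the largest fibroblast-like value, -2.42 ± 0.73 against Sham (edgeR adjusted p = 0.193), at 274, 216, 163, 153, 98.4 and 16.1 CPM. It was called with no filter (-2.29, adjusted p = 0.000190), without mMCAO ipsi (-4.15) and without sMCAO ipsi (-1.43, 0.0182), and subtraction of free neuronal RNA left it 0 to 3 UMIs per library. Over the endothelial-like and fibroblast-like classes edgeR and DESeq2 called 0 members against Sham, with 1 and 2 unadjusted p under 0.05.

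Myeloid-like nuclei numbered only 5 and 8 in the Sham libraries, so they were not compared with Sham. With 202 and 129 nuclei in the contra and 919 and 1716 in the ipsi libraries, MCAO ipsi was tested against MCAO contra, a test added after the data were seen. EdgeR called 0 of 8 members and 0% of all genes tested, as did DESeq2, with 2 unadjusted p under 0.05 by edgeR. Ano6 was 85.3 and 82.3 CPM in mMCAO contra and sMCAO contra and 151 and 262 CPM in mMCAO ipsi and sMCAO ipsi, with a log2 fold change of 1.22 ± 0.36 (edgeR adjusted p = 0.595). Atp10d was 134 and 156 CPM in the contra libraries and 152 and 259 CPM in the ipsi libraries (0.44 ± 0.33, adjusted p = 0.677). Atp8a2 was 439 and 247 CPM in the contra and 206 and 99.8 CPM in the ipsi libraries (-1.27 ± 0.47, adjusted p = 0.595), where free neuronal RNA was 19.4%, 26.4%, 15.1% and 2.88% of UMIs. The Ano6 value was 1.55 without mMCAO ipsi and 0.82 without sMCAO ipsi, fits that each leave 1 ipsi library. Within the ipsi libraries the severe to moderate ratio was 1.74 (1.44 to 2.13) for Ano6 and 1.71 (1.41 to 2.09) for Atp10d. The makeup of this class also differed between libraries. Cluster 16, led by Lilrb4, Gpnmb and Cd74, held 9, 11, 189 and 948 nuclei of mMCAO contra, sMCAO contra, mMCAO ipsi and sMCAO ipsi. Cluster 12 held 193, 118, 730 and 768 in the same order. Differences within these clusters were not tested.

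In neuronal classes edgeR called 0 of 9 members in each class in MCAO ipsi against Sham, as did DESeq2, with 2, 3 and 1 unadjusted p under 0.05 in the glutamatergic, the medium spiny and the other GABAergic neuron-like class. Of all genes tested, 6.83%, 5.23% and 0.978% were called there. Against MCAO contra the edgeR and DESeq2 counts were again 0, with 4, 1 and 1 unadjusted p under 0.05 and shares of all genes of 4.05%, 3.92% and 0.00741%. Some values passed the adjusted p but not the fold limit. Xkr4 in medium spiny neuron-like nuclei was 923, 915, 902, 872, 1194 and 1136 CPM, above all others in both ipsi libraries, by 0.27 ± 0.08 against Sham (edgeR adjusted p = 0.0373) and 0.38 against MCAO contra (0.00583). Atp8a1 in the same class was 562, 600, 523, 461, 430 and 526 CPM, with both ipsi libraries below both Sham libraries (log2 fold change -0.36 ± 0.10, adjusted p = 0.0252).

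Glutamatergic neuron-like nuclei had Ano6 levels of 81.6, 72.5, 76.2, 77.1, 99.5 and 102 CPM, with both ipsi libraries highest. The log2 fold change was 0.29 ± 0.08 against Sham (edgeR adjusted p = 0.0501) and 0.42 against MCAO contra (0.0208). Atp10d was 6.89, 6.64, 7.15, 9.33, 8.72 and 16.5 CPM and stood highest in sMCAO ipsi, at 1.89 times mMCAO ipsi (1.53 to 2.32). Atp8a2 in these nuclei was 360, 342, 361, 358, 346 and 409 CPM, and overlapped between the groups (0.01 ± 0.08, adjusted p = 0.945).

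MCAO contra against Sham gave 0 calls by edgeR among the 68 combinations and 0 by DESeq2, with 8 unadjusted p under 0.05. In the glial, endothelial-like and fibroblast-like classes 0% of all genes tested were called. The neuronal shares were 0.0898% for the medium spiny, 0.0667% for the other GABAergic and 0.0336% for the glutamatergic class. With only the 4 libraries of the compared groups fitted, Atp8a2 in oligodendrocyte-like nuclei was called (-0.82, edgeR adjusted p = 0.0448). It was called under 3 of its 12 alternatives, with -0.82 without mMCAO ipsi and -0.81 without sMCAO ipsi. Free neuronal RNA in this class was estimated at 31.5% to 34.2% in Sham and 16.2% to 19.1% in MCAO contra. Its part in the Atp8a2 value was not tested.

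Within the oligodendrocyte lineage the genes differed between sub-clusters. Sub-clusters were formed from the 2000 most variable genes of the same nuclei, so these levels are descriptions, with intervals that cover counting error only. The pooled level of Atp8a1 was lower in the earlier stages than in oligodendrocyte-like sub-clusters. It was 330 CPM (297 to 365) in OPC-like sub-cluster 1, 216 (181 to 255) and 510 (426 to 605) in COP/NFOL-like sub-clusters 9 and 11, and 962 to 1367 CPM in oligodendrocyte-like sub-clusters 0, 2, 3, 5, 6 and 8. Sub-cluster 8 is mixed, with only 57.5% of its nuclei in the oligodendrocyte-like class, and its levels cover all its nuclei. Atp11a was 79.1 CPM (63.5 to 97.4) in sub-cluster 1, 290 (250 to 336) and 308 (244 to 383) in sub-clusters 9 and 11, and between 218 (184 to 257) in sub-cluster 8 and 430 (384 to 480) in sub-cluster 5 among those oligodendrocyte-like sub-clusters, a range that includes both COP/NFOL-like values. Xkr4 was lower in sub-cluster 9, at 292 CPM (251 to 337), than in sub-clusters 1 (1190, 1127 to 1256) and 11 (1008, 889 to 1139).

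Atp10a and Xkr4 also differed between oligodendrocyte-like sub-clusters. Atp10a, which is itself among the leading genes of sub-cluster 5, was 332 CPM (292 to 376) there, with 214, 167, 435, 269, 335 and 338 CPM in the 6 libraries. It was 97.3 CPM (82.5 to 114) in sub-cluster 0, 11.9 (5.46 to 22.7) in sub-cluster 2, which also carries Opalin and Mal, and 3.01 (0.365 to 10.9) in sub-cluster 8. Xkr4 was 708 CPM (648 to 771) in sub-cluster 5 and 1733 (1634 to 1836) in the mixed sub-cluster 8 (57.5% oligodendrocyte-like nuclei), where the 5 libraries with enough nuclei spanned 1644 to 1876 CPM. Atp8a2 ran from 12.2 CPM in sub-cluster 6, on 8 UMIs, to 134 (108 to 165) in sub-cluster 8. Ano6 stayed between 12.2 and 45.9 CPM in all oligodendrocyte-like sub-clusters, sub-cluster 4 included.

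**Figure D4:**
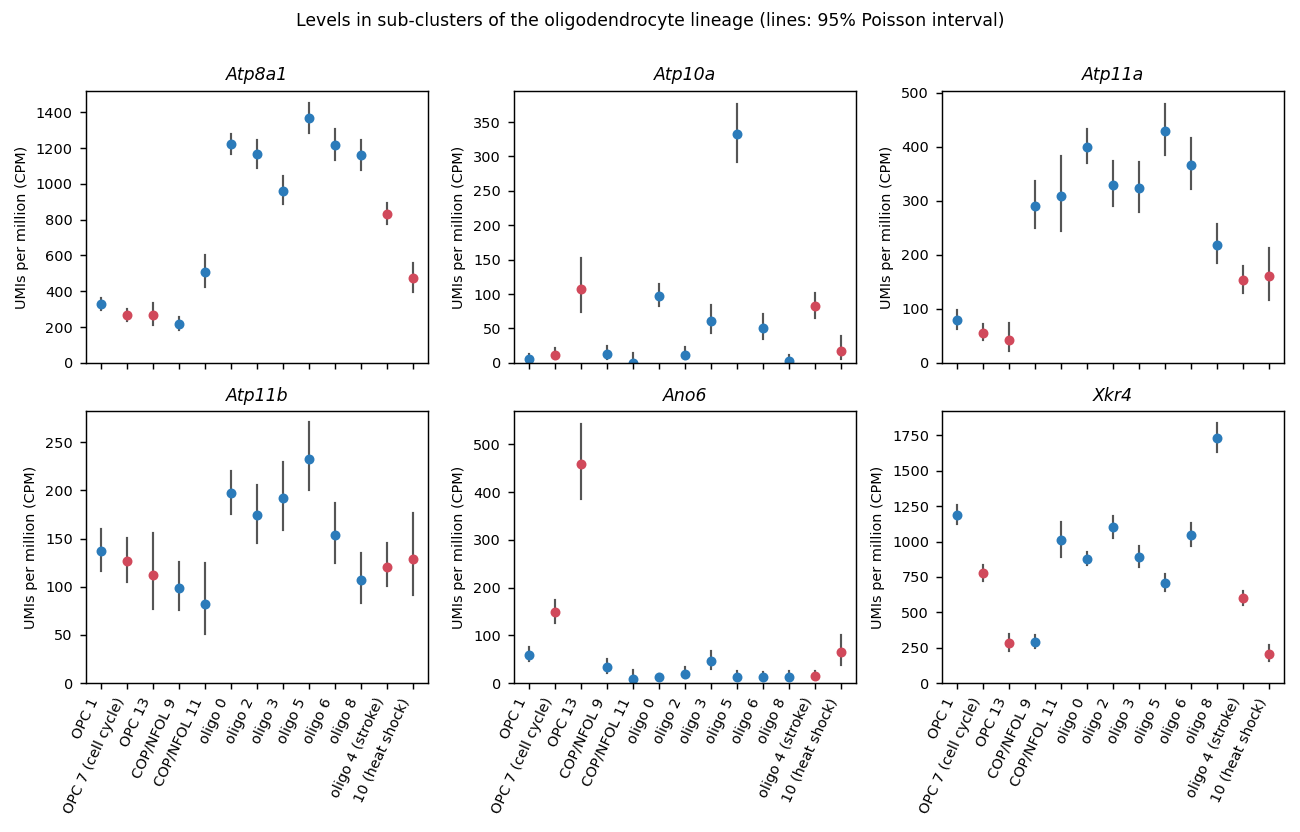
Pooled levels (CPM, vertical axes from 0) of 6 genes in sub-clusters of the oligodendrocyte lineage, with lines for 95% Poisson intervals. Red marks the stroke-associated sub-cluster and those with cell cycle or heat shock transcripts. Sub-cluster 6 is not red, although 72 nuclei of mMCAO ipsi and 432 of sMCAO ipsi make up most of its 604 nuclei. Ano6 stands at 459 CPM in OPC-like sub-cluster 13 and Atp10a at 332 CPM in oligodendrocyte-like sub-cluster 5.

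A stroke-associated sub-cluster (sub-cluster 4), named from a list of stroke-associated oligodendrocyte genes, held 164 oligodendrocyte-like nuclei of mMCAO ipsi and 576 of sMCAO ipsi, next to 931 and 683 other oligodendrocyte-like nuclei of the same libraries. Atp8a1 was 841 against 1095 CPM in mMCAO ipsi and 827 against 1263 CPM in sMCAO ipsi, ratios of 0.768 (95% interval 0.629 to 0.932) and 0.655 (0.593 to 0.723). Atp11a was 209 against 316 CPM and 140 against 358 CPM, ratios of 0.660 (0.435 to 0.970) and 0.391 (0.311 to 0.487). Xkr4 was 716 against 986 CPM and 581 against 948 CPM, ratios of 0.726 (0.584 to 0.895) and 0.612 (0.545 to 0.688). These 3 genes were thus lower in the stroke-associated nuclei of both libraries beyond counting error, which does not cover the spread between rats. The same held with free neuronal RNA subtracted and with the state assigned from each nucleus' own UMIs of the list. With predicted doublets kept, the Atp11a interval in mMCAO ipsi included 1 (ratio 0.691, 0.455 to 1.02). Atp8a1, Atp11a and Xkr4 are 3 of the 6 members with a mean of at least 20 CPM, where 4.86% of the 6479 genes at that level were lower in the same way. The study had named the stroke-associated list from these samples. It had also reported Atp10a, Atp11a and Atp11b as downregulated in its infarction-restricted mature oligodendrocytes. Its reference was a homeostatic mature sub-cluster of all libraries together, with a test over nuclei. The ratios here use all other oligodendrocyte-like nuclei of the same library, so the comparisons differ. The members were chosen with such results known, so this share is a description and not independent evidence.

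Atp10d was the gene with a ratio above 1 in both libraries, at 3.55 (1.01 to 11.7) and 3.07 (1.27 to 8.52) on 6 and 22 UMIs in stroke-associated nuclei. With predicted doublets kept, its interval in mMCAO ipsi was 0.977 to 10.5. With the state assigned from own UMIs, its ratios were 1.75 (0.523 to 5.84) and 2.01 (0.794 to 6.02). Atp10a was 13.9 against 95.5 CPM in mMCAO ipsi (ratio 0.146, 0.0173 to 0.547) but 97.8 against 123 CPM in sMCAO ipsi (0.797, 0.584 to 1.08). Atp11b was lower in sMCAO ipsi only, with 0.913 (0.581 to 1.39) and 0.686 (0.516 to 0.910). The intervals of Ano6 and Atp8a2 included 1 in both libraries. The neuronal markers were 3553 CPM in stroke-associated and 4787 CPM in other nuclei of mMCAO ipsi, and 1369 and 2262 CPM in sMCAO ipsi. Of the 2354 oligodendrocyte-like ipsi nuclei, 1102 held 1 to 3 UMIs of the stroke-associated list, so many nuclei lie near any border between the states.

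**Figure D5:**
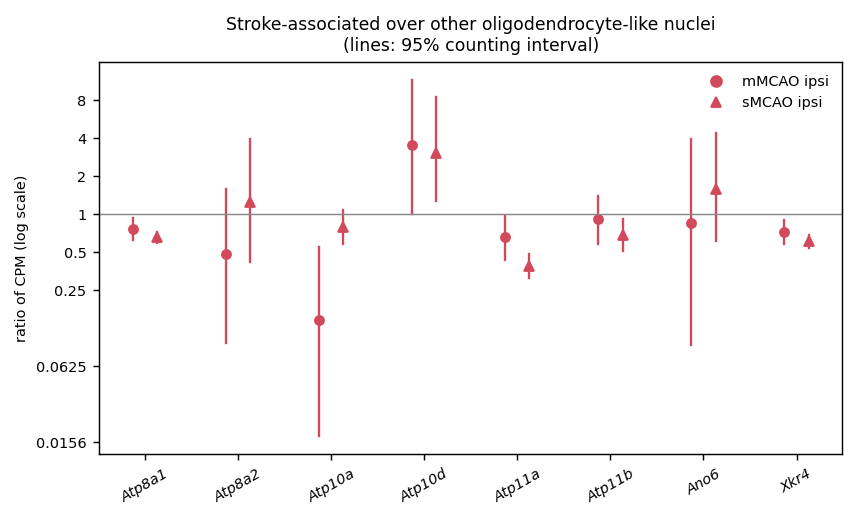
Ratio of the level in stroke-associated over other oligodendrocyte-like nuclei of the same library (log axis) for 8 genes, with Xkr8 left out for lack of counts; points are the 2 ipsi libraries and lines are 95% counting intervals. Atp8a1, Atp11a and Xkr4 lie below 1 in both libraries, with 0.391 for Atp11a in sMCAO ipsi, and Atp10d lies above 1.

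A further sub-cluster with heat shock transcripts (sub-cluster 10) was left unnamed and came almost only from sMCAO ipsi. Its 333 nuclei had 472 CPM of Atp8a1 (397 to 558), 207 of Xkr4 (159 to 266), 160 of Atp11a (117 to 212) and 64.6 of Ano6 (38.9 to 101).

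The severity of the infarct could not be tested, with 1 ipsi library of each. In oligodendrocyte-like nuclei the severe to moderate ratio was 0.652 (0.530 to 0.803) for Atp11b, 0.834 (0.709 to 0.982) for Atp11a and 0.993 (0.914 to 1.08) for Atp8a1. It was 1.36 (1.02 to 1.82) for Atp10a. For Atp8a2 it was 0.258 (0.132 to 0.484), on 16 and 32 UMIs. Subtraction of free neuronal RNA left 0 UMIs of Atp8a2 in both libraries. The ratio between hemispheres of the same rats, Sham R over Sham L, was 0.961 (0.671 to 1.35) for Atp11b. It was 1.05 (0.797 to 1.36) for Atp11a, 1.13 (0.979 to 1.29) for Atp8a1 and 0.934 (0.533 to 1.56) for Atp8a2. Atp10a was 84.0 CPM in Sham L and 84.1 CPM in Sham R.

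Of the genes around the flippases, Tmem30a, the CDC50 subunit, was 101, 88.5, 103, 83.2, 107 and 140 CPM in oligodendrocyte-like nuclei, with sMCAO ipsi highest. Tmem30b had 1 UMI or none in each class and library shown here. The lists of other P4-ATPases, CDC50 subunits, other scramblases, caspases and Xkr8 partners, phosphatidylserine synthesis, receptors and lipid exporters gave 63 genes, 58 of them in the files. Of 287 gene and class combinations tested in MCAO ipsi against Sham, 27 were called, 16 higher and 11 lower. The share of all genes called ran from 0% to 19.5% between the classes. In OPC-like nuclei 28 were tested, 3 rose and 1 fell, next to 12.3% of all genes called. Axl, a receptor tyrosine kinase that binds phosphatidylserine through a bridging protein, was 5.20, 7.42, 7.51, 18.8, 96.7 and 201 CPM there and rose by 4.46 ± 0.72 on the log2 scale (edgeR adjusted p = 0.00306). The related receptor Mertk fell by 2.08 ± 0.40 on the log2 scale (0.00669), from 140 and 89.1 CPM in Sham to 42.1 and 20.8 CPM in ipsi, while the engulfment receptor Megf10 (1.32 ± 0.34, 0.0248) and the ER scramblase gene Vmp1 (1.17 ± 0.26, 0.0126) rose.

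In astrocyte-like nuclei 31 were tested, 5 rose and 8 fell, next to 19.5% of all genes called. The 4 with the largest change fell: Ano3 (log2 fold change -3.15 ± 0.47, edgeR adjusted p = 0.00118), the sterol exporter gene Abcg1 (-3.13 ± 0.72), Ano4 (-2.23 ± 0.50) and the P4-ATPase gene Atp9a (-2.10 ± 0.50). Ano3 was 157, 304, 194, 122, 47.7 and 16.3 CPM in astrocyte-like nuclei and 613 to 885 CPM in medium spiny neuron-like nuclei. The neuronal marker ranges given for the astrocyte-like class apply to Ano3 and to the other genes that fell. In oligodendrocyte-like nuclei 31 were tested, 2 rose and 1 fell, next to 5.99% of all genes called. The endothelial-like and fibroblast-like classes gave none, with 0% of all genes called. Pros1 encodes protein S, a bridge between phosphatidylserine and its receptors. In oligodendrocyte-like nuclei it was 14.4, 4.43, 26.7, 33.1, 54.6 and 83.2 CPM and rose (2.53 ± 0.43, edgeR adjusted p = 0.0238). The lipid exporter gene Abca8a rose too in the oligodendrocyte-like class (1.21 ± 0.22, 0.0255), and Nptn, encoding an Xkr8 partner, fell there (-0.86 ± 0.20, 0.0480). Free neuronal RNA in that class was 31.5% to 34.2% of UMIs in Sham and 4.21% to 14.2% in MCAO ipsi. Its part in the Nptn value was not tested.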

How the data were processed

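Nuclei were isolated from frozen hemispheres and sequenced with a droplet-based 5′ kit. The authors ran Cell Ranger 7.0.0 on the mRatBN7.2 build of the rat genome, counting intronic reads too, and deposited the UMI counts of each nucleus unnormalized, without the removal of free RNA or doublets that followed in the study. Nuclei with at least 500 UMIs, 250 to 5000 genes and at most 5% mitochondrial UMIs were kept, and the 5% with the highest doublet score in each library were left out. This left 8232 to 13766 nuclei per library. After the limits, 3015 of 70546 different barcodes occurred in more than 1 library.

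Nuclei were clustered (3000 variable genes, 30 components, 15 neighbours, Leiden resolution 1.0, 37 clusters) and named from fixed markers, with thresholds set after the clusters were seen. Counts were summed per class and library and tested with edgeR 4.0.16 (quasi-likelihood, TMM, filter on low counts, all 6 libraries in 1 fit per class, p-values adjusted over all genes tested). DESeq2 1.42.0 served as an alternative. Scripts were tested on simulated data. Free neuronal RNA was estimated per class and library as the median, over 9 neuronal markers, of their level relative to that in neuronal nuclei. It was subtracted as an alternative, and results below 0 were set to 0. Intervals are exact at 95% and, like the limit of 3 counts that a count of 0 allows, cover counting error only, for example 1.88 to 13.3 CPM in oligodendrocyte-like nuclei.

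The 9 genes and the other lists were chosen with earlier results of these data known. All 9 are named. Of the lists, the genes called in MCAO ipsi against Sham were named, at most the 4 with the largest change per class, and for each of the 9 the 2 genes of highest r among those with a mean of at least 20 CPM. Some genes that this rule names are not reported here. Contra and ipsi libraries of one severity share their rats, so they are paired by design. The correlation of their deviations from the group means across genes was -0.26 to 0.30 over the 9 classes. Mouse tissue and imaging were not used here.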

Additional observations from a re-analysis of the deposited data

Results flagged for a closer look

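Each of the following was noted because a test of the difference itself, the class-by-group term for MCAO ipsi against Sham in edgeR, passed an adjusted p of 0.05. No group held 4 libraries, so no single library could be tested as standing apart. The Ano6 term of oligodendrocyte-like against OPC-like nuclei was -2.48, against astrocyte-like nuclei -4.07 and against glutamatergic neuron-like nuclei -1.41. The Xkr4 term of oligodendrocyte-like against astrocyte-like nuclei was 2.99. Subtraction of free neuronal RNA left 0 to 11 UMIs of Xkr4 per library in astrocyte-like nuclei. The Atp8a2 term of oligodendrocyte-like against glutamatergic neuron-like nuclei was -2.01, and subtraction of free neuronal RNA left 0 UMIs of Atp8a2 in oligodendrocyte-like nuclei. The oligodendrocyte-like level of Ano6 behind these terms was 13.1 to 35.4 CPM over the 6 libraries, and free neuronal RNA in that class ranged from 4.21% to 34.2% of UMIs. Its part in these terms was not tested.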

How the results depend on the processing

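The 6 calls in MCAO ipsi against Sham became 13 with no filter on low counts, 2 with free neuronal RNA subtracted, 1 with nuclei assigned from their own marker UMIs (Ano6 in astrocyte-like nuclei) and 3 without the OPC-like sub-clusters with cell cycle transcripts, where Atp8a2 in OPC-like nuclei turned to 0.06. Leaving out each library gave 4 to 21, the highest without mMCAO ipsi. The 7 calls in MCAO ipsi against MCAO contra became 12 with no filter, 1 with own-marker assignment and 3 without those sub-clusters, and 4 to 20 with a library left out, lowest without mMCAO contra and highest without mMCAO ipsi. MCAO contra against Sham gave 1 call when only the groups compared were fitted. This was Atp8a2 in oligodendrocyte-like nuclei, called under 3 of its 12 alternatives in that comparison. In myeloid-like nuclei the 0 calls in MCAO ipsi against MCAO contra became 2 of 9 members with no filter, where 447 genes were called in all. The myeloid-like count also rose without mMCAO ipsi, a fit that leaves 1 ipsi library. Log2 fold changes were then 1.55 for Ano6 and -2.46 for Xkr4, against 0.82 and -0.26 without sMCAO ipsi. The 5 class-by-group terms also changed in number with a library left out. With the rat pool as a replicate block, which pairs contra with ipsi libraries, the count was 7 and no call changed. Ano6 in astrocyte-like nuclei was called under all 13 alternatives against Sham, with log2 fold changes of 2.14 to 3.33. Over 383 alternatives of 30 named results outside the myeloid-like class, 314 kept direction and side of the threshold, 37 lost the call, 31 gained it and 1 reversed. For lost calls the cause was not tested, but the assignment by own markers tested only 57 combinations. DESeq2 gave no adjusted p for the Ano6 term of oligodendrocyte-like against OPC-like nuclei. The sub-cluster alternatives were added after the data were seen.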

Other observations

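Outside the compared groups of genes, glutamatergic neuron-like nuclei gave 5 higher and 1 lower call among 44 genes of the other lists in MCAO ipsi against Sham, by edgeR, where 6.83% of all genes tested were called. Pros1 (log2 fold change 2.52 ± 0.31, adjusted p = 0.00448), the P4-ATPase gene Atp8b1 (2.44 ± 0.29, 0.00429) and the cholesterol and phospholipid exporter gene Abca1 (2.10 ± 0.14, 0.00121) were the 3 with the largest change, and all rose. Atp8b1 stayed at 0.839 to 6.94 CPM and Pros1 at 0.618 to 5.68 CPM in this class. In other GABAergic neuron-like nuclei, Bsg, whose product basigin carries Xkr8 to the plasma membrane, rose by 0.86 ± 0.17 on the log2 scale (adjusted p = 0.0467).

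Ependymal-like nuclei, 315 in all, were not tested. Their Atp8a1 level was 198 to 434 CPM and their Xkr4 level 61.0 to 434 CPM over the 6 libraries, from 112 and 60 UMIs in total.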
